A study of Mus musculus with 23 samples.

Results

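The receptors for the constant part of antibodies, with the chains and the kinase that signal for them, were followed in mouse lung. The group held 8 genes of the 35322 listed in the deposited expression table, and its members were found by gene symbol: the signalling chains Fcer1g and Tyrobp, the kinase Syk, the activating IgG receptors Fcgr1, Fcgr3 and Fcgr4, the inhibitory IgG receptor Fcgr2b, and Fcgrt, which encodes the large chain of the neonatal Fc receptor. All 8 passed the filter on low values, at least 0.5 RPM (the reads of a gene scaled to a total of its library that was larger than its reads on genes) in at least 4 of the 23 libraries, which left 16795 genes for testing.

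Fc receptors bind antibody that has captured antigen and turn it into a signal inside macrophages, neutrophils, mast cells, dendritic cells and NK cells. The activating IgG receptors and the high-affinity IgE receptor have little signalling sequence of their own and borrow that of the FcRgamma chain, encoded by Fcer1g, which carries an immunoreceptor tyrosine-based activation motif (ITAM), while Tyrobp encodes DAP12, a like chain used by other myeloid and NK cell receptors. When the tyrosines of an ITAM are phosphorylated by Src family kinases, Syk docks on them and passes the signal on, whereas FcgammaRIIB, the product of Fcgr2b, carries an inhibitory motif (ITIM) that recruits phosphatases. In allergic airway disease, IgE bound to its receptor arms mast cells and basophils, and the neonatal receptor protects IgG from breakdown and carries it across endothelium and epithelium.

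RNA-Seq libraries of lung from 23 BALB/c offspring aged 13 weeks were analysed. The dams of the Sham and Sham-OVA groups had received saline, and those of the PM and PM-OVA groups PM2.5, fine airborne particles. The 5 Sham-OVA and 4 PM-OVA offspring were sensitised to ovalbumin (OVA) with alum and then breathed aerosolised OVA, a model of allergic airway disease, and the 7 Sham and 7 PM offspring had a saline or, per the labels, PBS challenge. According to the study's methods all offspring sequenced were female, the lung was the right lower lobe, which the labels give as RML, and it was taken the day after the last challenge, after lung function had been measured with methacholine. Each library was taken as 1 offspring. The methods do not tie libraries to dams, so siblings cannot be told from unrelated offspring, and p-values measure the spread between these libraries.

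The motifs that give these chains their names can be read in the coding sequences of the reference genome, and are printed because the OVA response was largest for a chain with an ITAM and for the receptor with an ITIM. The stretches are from the GRCm38 assembly with its GENCODE gene models, 5′ to 3′ on the coding strand, and capitals mark the codons for tyrosine and leucine in the ITAMs and for isoleucine, tyrosine and leucine in the ITIM.
Fcer1g ITAM: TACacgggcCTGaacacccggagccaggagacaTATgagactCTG
Tyrobp ITAM: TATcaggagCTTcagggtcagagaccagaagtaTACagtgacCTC
Fcgr2b ITIM: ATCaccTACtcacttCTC
The Fcer1g stretch covers codons 65 to 79 of 86 in its transcript Fcer1g-201, lies across an exon junction on the reverse strand within chr1:171229889-171230072, and was absent from the other of the 2 coding transcripts. The Tyrobp stretch covers codons 92 to 106 of 114 and lies across an exon junction on the forward strand within chr7:30415670-30417382. The Fcgr2b stretch covers codons 317 to 322 of 340 and lies in an exon on the reverse strand at chr1:170961071-170961088. A pattern of tyrosine and leucine or isoleucine repeated at the ITAM spacing was not found in the coding sequence of the other 6 members, Fcgr1, Fcgr3 and Fcgr4 among them.

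Reads on genes numbered 13089691 to 17393579 in the 14 saline libraries and 2298645 to 12355561 in the 9 OVA libraries. Every OVA library was thus shallower than every saline library. Depth therefore went along with the challenge wherever OVA was compared with saline, and its part in those differences was not tested. Replicates correlated at 0.971 or more within each saline group, while the lowest values after OVA were 0.899 (Sham-OVA) and 0.895 (PM-OVA). Sham-OVA replicate 3 was the shallowest, with 1 read worth 0.311 RPM, followed by PM-OVA replicates 4 and 3 with 4324326 and 5922469 reads. Alveolar epithelial markers, Sftpc among them, summed to at least 14379 RPM in all libraries. Sham replicate 1 went against the stated sex: Xist had 5 reads there and Eif2s3y, on the Y chromosome, 936 reads (54.0 RPM), while Eif2s3y was at 0 in the other 22 libraries. Results that change without these libraries are given with and without them.

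The OVA challenge was accompanied by higher levels of most of the genes. In offspring of saline-exposed dams 7 of 8 were called higher and 0 lower by limma on log2(RPM + 0.5) at an adjusted p under 0.05. Of all genes tested, 20.6% were called higher and 47.5% lower. Without Sham replicate 1 the count was 5 of 8, with Fcgr4 and Syk no longer called. In offspring of PM2.5-exposed dams 5 of 8 were called higher and 1 lower, against 20.1% and 45.2% of all genes. All saline libraries were below all OVA libraries for 3 genes in the first comparison (Fcer1g, Fcgr2b and Fcgrt), as for 13.2% of all genes, and for 4 in the second (the same with Fcgr3), as for 13.3%. The study's own threshold was an adjusted p under 0.000001 with a log2 fold change above 1, set for DESeq2. At it limma called Fcer1g alone in the first comparison (1.98% of all genes called higher) and none in the second (0.262%). DESeq2 on recovered reads called Fcer1g, Fcgr2b, Fcgr3, Fcgrt and Tyrobp higher at it in both comparisons. It called 2302 of 16681 genes higher in the first and 1767 of 16565 in the second. In whole lung, more cells of a type and more RNA per cell cannot be told apart.

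**Figure D1:**
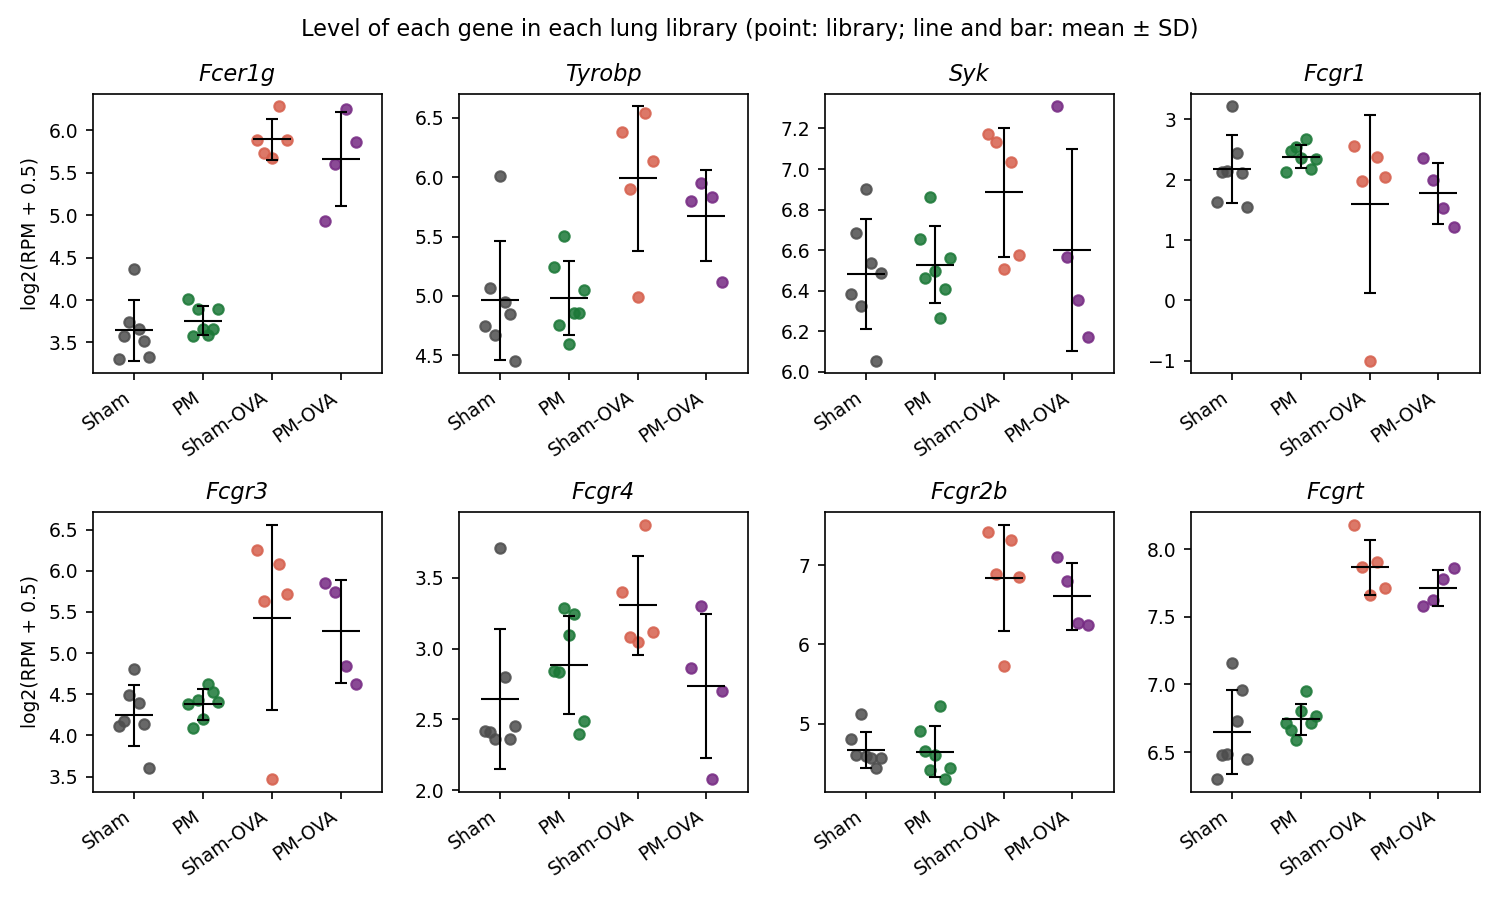
Level of the 8 genes on the log2(RPM + 0.5) scale (vertical axes) in each library of the 4 groups (horizontal axes), points standing for libraries and black lines and bars for the group mean and SD. The OVA libraries sit above the saline libraries for Fcer1g, Fcgr2b and Fcgrt, while Fcgr1 and Syk overlap between groups and Fcgr1 was at 0 in Sham-OVA replicate 3.

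Fcer1g, the FcRgamma chain (chr1:171229572-171234365, reverse strand), had the highest log2 fold change of the 8 genes in Sham offspring and was second to Fcgr2b in PM offspring. It lay between 9.35 and 20.1 RPM in Sham (median 11.5, n = 7) and between 11.5 and 15.7 RPM in PM (median 12.2, n = 7). The Sham-OVA libraries had 58.6, 52.6, 50.6, 77.4 and 58.9 RPM in replicates 1 to 5, and the PM-OVA libraries 30.0, 48.0, 75.9 and 57.9 RPM in replicates 1 to 4. The lowest OVA library, PM-OVA replicate 1, was above the highest saline library, Sham replicate 4. Means rose from 12.3 ± 3.65 to 59.6 ± 10.6 RPM (SD, n = 7 and 5) in Sham offspring, a log2 fold change of 2.25 (SE 0.19, 4.76-fold, adjusted p = 2.384e-07), and from 13.1 ± 1.67 to 53.0 ± 19.2 RPM (SD, n = 7 and 4) in PM offspring, a log2 fold change of 1.91 (SE 0.22, 3.75-fold, adjusted p = 3.703e-05). The 4 PM-OVA libraries spread over a wider range of Fcer1g than the 5 Sham-OVA libraries.

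Tyrobp, the DAP12 chain (chr7:30413760-30417585, forward strand), rose less. Its levels were 21.4 to 64.0 RPM in Sham (median 28.2) and 23.7 to 44.9 RPM in PM (median 28.5), with 82.7, 59.1, 31.4, 92.6 and 69.7 RPM in the 5 Sham-OVA libraries and 55.3, 61.4, 56.6 and 34.1 RPM in the 4 PM-OVA libraries. The lowest library of each OVA group was its shallowest (Sham-OVA replicate 3 and PM-OVA replicate 4) and fell within the saline range, and Sham replicate 4 was above 2 of the 5 Sham-OVA libraries. The log2 fold change was 1.02 in Sham offspring (SE 0.28, adjusted p = 0.005022) and 0.69 in PM offspring (SE 0.20, adjusted p = 0.009145), where array weights ended the call (0.65, adjusted p = 0.05246). Within a library, log2 Tyrobp minus log2 Fcer1g lay between 0.93 and 1.65 in Sham and between 0.93 and 1.61 in PM, and between -0.68 and 0.49 in Sham-OVA and between -0.75 and 0.87 in PM-OVA, so that Tyrobp had a median of 2.57 times the reads of Fcer1g in Sham and 1.18 times in Sham-OVA. Apart from the pseudocount these differences do not depend on how a library is scaled, and the saline and OVA libraries did not overlap in them.

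Syk, the kinase that docks on phosphorylated ITAMs (chr13:52583173-52648792, forward strand), changed least among the genes called higher. Levels were 66.0 to 119 RPM in Sham (median 89.1) and 76.5 to 116 RPM in PM (median 89.7). The 5 Sham-OVA libraries had 144, 139.7, 90.4, 131 and 94.9 RPM and the 4 PM-OVA libraries 158, 94.2, 81.4 and 71.5 RPM. OVA and saline libraries overlapped in both comparisons, and PM-OVA replicate 1 alone of its group exceeded all PM libraries. The log2 fold change was 0.40 (SE 0.17, adjusted p = 0.04755) in Sham offspring, a call lost in 8 of the 12 fits that left out 1 library, among them that without Sham replicate 1 (0.39, adjusted p = 0.07552). It was 0.07 (SE 0.20, adjusted p = 0.7599) in PM offspring, where a call of a rise was made with median-of-ratios scaling (0.43, adjusted p = 0.02011), quantile normalisation, DESeq2 and edgeR.

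The activating IgG receptors did not move together. Fcgr3, encoding FcgammaRIII (chr1:171051174-171064935, reverse strand), had 11.6 to 27.4 RPM in Sham (median 17.5) and 16.5 to 24.1 RPM in PM (median 20.7). Sham-OVA libraries had 76.0, 49.0, 10.6, 67.3 and 52.4 RPM, and PM-OVA libraries 57.2, 53.0, 28.1 and 24.1 RPM. Replicate 3 was below every Sham library, with 34 reads, while the other 4 Sham-OVA libraries were above every Sham library. Fcgr3 rose by a log2 fold change of 1.19 (SE 0.39, adjusted p = 0.01347) in Sham offspring and of 0.89 (SE 0.23, adjusted p = 0.004837) in PM offspring. Without Sham-OVA replicate 3 the first was 1.68 (SE 0.19, adjusted p = 4.835e-07).

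Fcgr4, encoding FcgammaRIV (chr1:171018920-171029761, forward strand), was a low gene in all groups. It had 4.63 to 12.6 RPM in Sham (median 4.85), 4.77 to 9.24 RPM in PM (median 6.67), 10.1, 7.97, 7.77, 14.2 and 8.18 RPM in Sham-OVA, and 6.79, 9.35, 3.72 and 5.99 RPM in PM-OVA. All 5 Sham-OVA libraries were above 6 of the 7 Sham libraries and overlapped with replicate 4 alone, whereas the PM-OVA libraries lay on both sides of the PM median. The log2 fold change was 0.66 (SE 0.26, adjusted p = 0.03283) in Sham offspring, a call lost in 7 of the 12 fits that left out 1 library. It was 0.62 without Sham replicate 1 (adjusted p = 0.05876) and 0.84 without Sham replicate 4 (adjusted p = 0.002474). In PM offspring it was -0.15 (SE 0.26, adjusted p = 0.6216), and median-of-ratios scaling turned it to 0.19 (adjusted p = 0.4854).

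Fcgr1, encoding the high-affinity IgG receptor FcgammaRI (chr3:96282909-96293969, reverse strand), was the member with the fewest reads. Levels were 2.41 to 8.81 RPM in Sham (median 3.86) and 3.85 to 5.87 RPM in PM (median 4.61). Sham-OVA libraries had 5.42, 3.46, 0, 4.70 and 3.65 RPM, and PM-OVA libraries 4.64, 3.48, 2.39 and 1.82 RPM. The 0 in Sham-OVA replicate 3 allows up to 0.932 RPM there, the worth of 3 reads and for counting error only. The log2 fold change of -0.58 in Sham offspring was not called (SE 0.52, adjusted p = 0.3307) and was 0.07 without that library (adjusted p = 0.8231). In PM offspring Fcgr1 was called lower (-0.61, SE 0.23, adjusted p = 0.03144), which was lost under median-of-ratios scaling (-0.30, adjusted p = 0.1734) and without the 2 shallowest PM-OVA libraries, 3 and 4 (-0.21, adjusted p = 0.3951).

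The inhibitory receptor Fcgr2b (chr1:170958617-170976547, reverse strand) rose by a fold close to that of Fcer1g. It lay between 21.3 and 34.5 RPM in Sham (median 23.8) and between 19.2 and 37.0 RPM in PM (median 24.0). The Sham-OVA libraries had 169.8, 118, 52.5, 159 and 115 RPM and the PM-OVA libraries 137, 111, 76.7 and 75.4 RPM. All OVA libraries were above all saline libraries, the lowest being Sham-OVA replicate 3. The log2 fold change was 2.16 in Sham offspring (SE 0.24, 4.47-fold, adjusted p = 3.056e-06) and 1.95 in PM offspring (SE 0.21, 3.87-fold, adjusted p = 2.877e-05), below and above the values of Fcer1g. Without Sham-OVA replicate 3 Fcgr2b was the higher in Sham offspring too, at 2.44 beside 2.31, and the difference between both genes was not tested. Of the 100-base windows of its transcripts, 1.40% also occur in another gene, as do 2.54% of those of Fcgr3, all of the latter in Fcgr2b. An exon overlaps Gm38204 on the other strand, which was listed at 0 in all libraries.

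Fcgrt (chr7:45092990-45103851, reverse strand) had 78.3 to 142 RPM in Sham (median 89.0) and 95.9 to 123 RPM in PM (median 105). The 5 Sham-OVA libraries had 289.6, 234, 202, 239.6 and 209 RPM and the 4 PM-OVA libraries 191, 196, 219.7 and 232 RPM. None of these fell within the saline range. The log2 fold change was 1.21 (SE 0.16, 2.32-fold, adjusted p = 1.624e-05) in Sham offspring and 0.97 (SE 0.11, 1.96-fold, adjusted p = 4.629e-05) in PM offspring. Among the partners of the neonatal receptor, B2m, whose product is its small chain, rose as well, by a log2 fold change of 0.98 (adjusted p = 0.001914) and 0.61 (adjusted p = 0.02991), and was the more abundant gene, with 627 to 1256 RPM in Sham and 1056 to 2223 RPM in Sham-OVA. Alb, the gene of its other ligand albumin, was low in most libraries and was not called (log2 fold change -2.15, adjusted p = 0.06909, and -2.11, adjusted p = 0.06102).

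**Figure D2:**
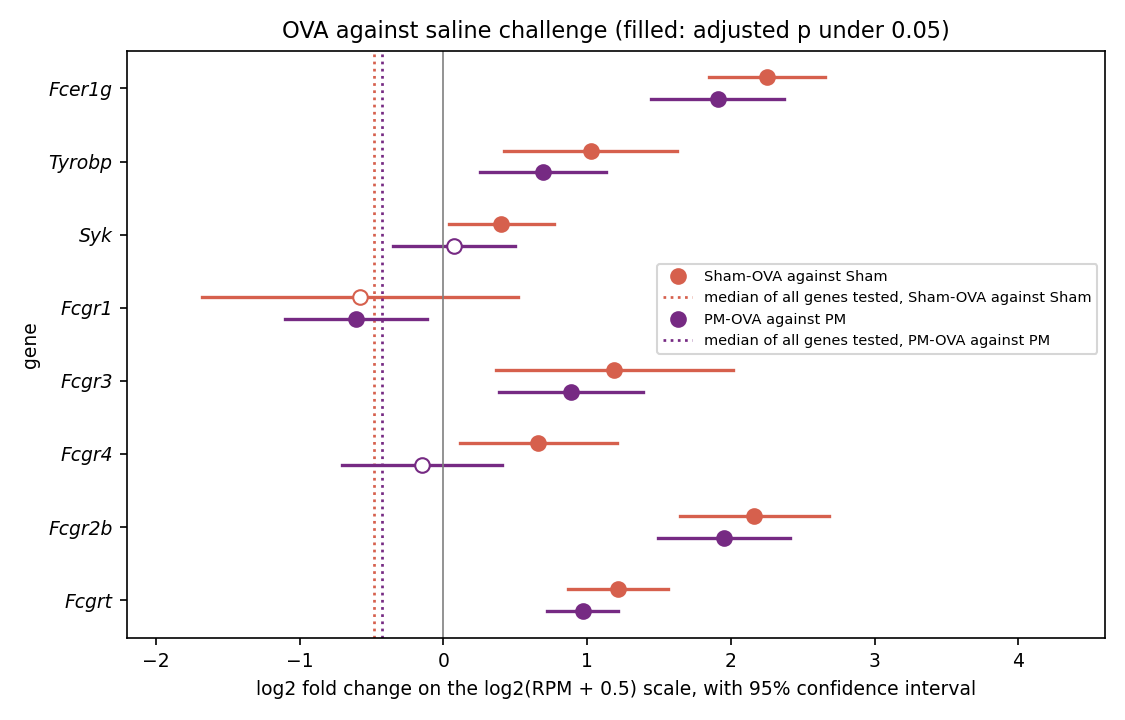
Log2 fold change of each gene (rows) between OVA and saline challenge on the log2(RPM + 0.5) scale (horizontal axis) with its 95% confidence interval, in Sham offspring (red) and PM offspring (purple), filled where the adjusted p was under 0.05. Fcer1g and Fcgr2b had the highest values, 1.91 to 2.25, and Fcgr1 lay near the medians of all genes tested, -0.48 and -0.43, shown as dotted lines.

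RPM values are shares of a library, and the median gene was lower after OVA by this measure, with a median log2 fold change of -0.48 in Sham and -0.43 in PM offspring. Median-of-ratios scaling moved these medians to -0.17 and -0.13 and quantile normalisation to -0.05 and -0.02, and the share of higher among all calls went from 30.2% to 43.4% and 48.6% in Sham offspring and from 30.8% to 44.8% and 49.3% in PM offspring. Relative to the median of all genes, Fcer1g was higher by 2.73 on the log2 scale in Sham offspring with RPM, 2.79 with median-of-ratios scaling and 2.69 with quantile normalisation, and in PM offspring by 2.33, 2.39 and 2.29. Fcgr1 differed from that median by -0.10 in Sham and -0.18 in PM offspring with RPM. Under each of these scalings Fcer1g, Tyrobp, Fcgr3, Fcgr2b and Fcgrt were called higher in both comparisons. Sham replicate 1 and the 3 shallowest OVA libraries, chosen after seeing the data, were also left out together. This left 7 of 8 called higher in Sham offspring (24.2% of all genes) and 5 of 8 in PM offspring (19.7%). In these fits 0 members were called lower, beside 7916 and 5258 of all 16795 genes. Without Sham replicate 1 alone, 5 of 8 were called higher in Sham offspring.

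Differences between the RNA levels of activating and inhibitory receptors can be read within a library, where scaling cancels out apart from the pseudocount. In whole lung they do not give the balance of receptors on any cell. Log2 Fcgr3 minus log2 Fcgr2b lay between -0.97 and 0.20 in Sham (median -0.44) and between -0.61 and 0.22 in PM (median -0.42). The 5 Sham-OVA libraries had -1.16, -1.26, -2.26, -1.23 and -1.12 and the 4 PM-OVA libraries -1.25, -1.06, -1.43 and -1.62, all below every saline library. Fcgr3 had a median of 0.731 of the reads of Fcgr2b in Sham and 0.424 in Sham-OVA. For Fcgr1 the difference from Fcgr2b fell from a median of -2.49 in Sham to -4.90 in Sham-OVA and from -2.18 in PM to -4.77 in PM-OVA, with no overlap, although the lowest value, -6.73 in Sham-OVA replicate 3, rests on 0 reads and on the pseudocount. For Fcgr4 it went from a median of -2.12 to -3.73 and from -1.91 to -3.87, and the highest Sham-OVA value (-2.68, replicate 3) lay above the lowest Sham value (-2.77). Fcer1g and Fcgr2b, by contrast, kept overlapping differences, with medians of -1.03 and -0.89 in Sham and PM, and of -1.03 and -0.79 in Sham-OVA and PM-OVA. These are descriptions with no test, since the values of the receptors in both groups were known when the differences were chosen.

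**Figure D3:**
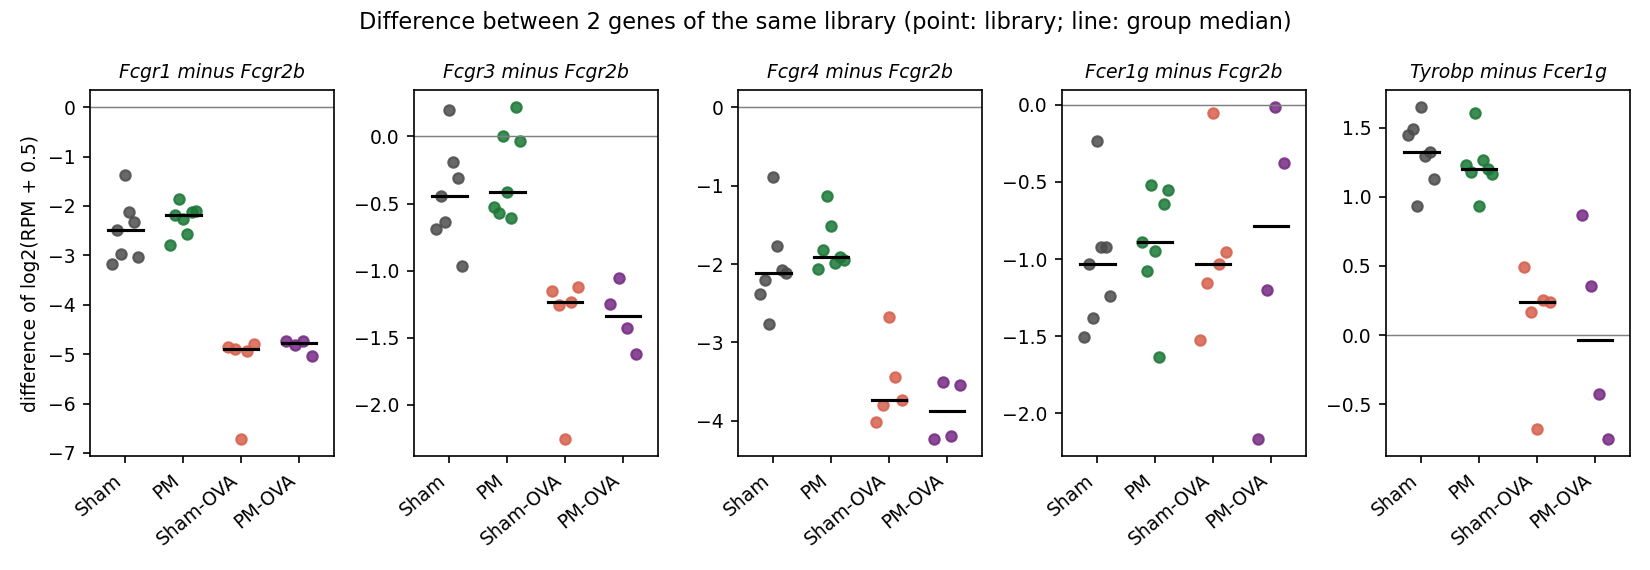
Difference of log2(RPM + 0.5) between 2 genes of the same library (vertical axes) for 5 pairs in the 4 groups (horizontal axes), points standing for libraries and lines for group medians. Fcgr1 and Fcgr3 minus Fcgr2b and Tyrobp minus Fcer1g show no overlap between saline and OVA libraries, Fcgr4 minus Fcgr2b overlaps at 1 Sham-OVA library, and Fcer1g minus Fcgr2b overlaps throughout.

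Divided by exon length, the levels of the genes can be set against each other. In Sham, Tyrobp had 48.9 ± 21.5 RPM per kilobase of exon and Fcgrt 48.6 ± 11.1 (SD, n = 7), which did not differ beyond their spread. Fcer1g followed with 14.1 ± 4.18, Fcgr3 with 10.9 ± 2.84 and Syk with 9.64 ± 1.82, neighbours that overlapped. Fcgr4 had 4.89 ± 2.33, Fcgr2b 4.38 ± 0.765 and Fcgr1 1.68 ± 0.832 RPM per kilobase, so that the order had gaps larger than the summed SDs of neighbours below Fcgrt, below Syk and above Fcgr1. In Sham-OVA the order was Fcgrt (112 ± 16.5), Tyrobp (101 ± 35.5), Fcer1g (68.2 ± 12.1), Fcgr3 (29.4 ± 14.5), Fcgr2b (21.2 ± 7.99), Syk (12.8 ± 2.71), Fcgr4 (7.67 ± 2.15) and Fcgr1 (1.33 ± 0.805; SD, n = 5). Here the gaps were below Fcer1g, below Syk and above Fcgr1. Fcgr2b thus went from rank 7 to rank 5 and passed Syk and Fcgr4, in PM-OVA as well (17.3 ± 5.11, n = 4). With the longest transcript as the length, Fcgr2b was already above Fcgr4 in Sham, at 7.16 RPM per kilobase.

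In Sham-OVA all 8 members were lowest in the shallowest library, replicate 3, and in PM-OVA they differed in this. Fcgr1, Fcgr2b, Fcgr3 and Syk were lowest in the shallowest library of each OVA group, Sham-OVA replicate 3 and PM-OVA replicate 4, and highest in the deepest, replicate 1 of each. Fcgrt was highest in the deepest Sham-OVA library as well. In PM-OVA, Fcer1g and Fcgrt were lowest in replicate 1, the deepest of its group, with 191 RPM of Fcgrt there and 232 RPM in replicate 4. Within PM-OVA, log2 Fcer1g minus log2 Fcgr2b was -2.17, -1.20, -0.015 and -0.38 in replicates 1 to 4. The part of depth in these differences was not tested. Deviations from the group means over the 23 libraries gave a Pearson r of 0.945 between Fcgr1 and Fcgr3, 0.812 between Fcgr2b and Fcgr3, 0.132 between Fcer1g and Fcgr3 and -0.104 between Fcer1g and Fcgr2b, given as descriptions over points that share libraries and their depth.

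**Figure D4:**
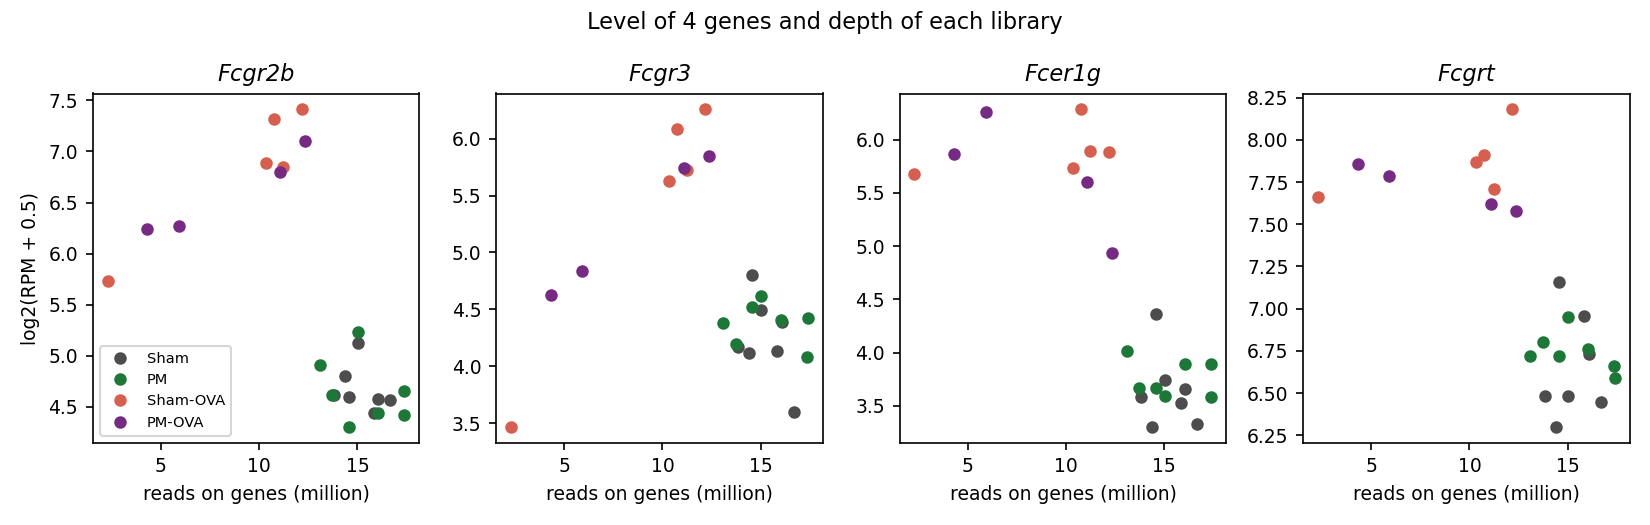
Level of Fcgr2b, Fcgr3, Fcer1g and Fcgrt on the log2(RPM + 0.5) scale (vertical axes) against the number of reads on genes (horizontal axes, linear scale), points standing for the 23 libraries and colours for the 4 groups. Among the 9 OVA libraries the 3 shallowest have the lowest Fcgr2b and Fcgr3, but not the lowest Fcer1g or Fcgrt.

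Maternal PM2.5 exposure alone was compared next, to ask whether it moved these genes with or without OVA. By limma 0 of 8 members were called in PM against Sham and 0 of 8 in PM-OVA against Sham-OVA, as for 0% of all genes tested in each. At an unadjusted p under 0.05 there were also 0 members in each, beside 731 and 313 of all 16795 genes. DESeq2 and edgeR on recovered reads called 0 members. At an unadjusted p under 0.05 there was 1 member by DESeq2 in PM-OVA against Sham-OVA (583 of 16689 genes) and 0 in the other 3 counts. With array weights 0 members were called as well, and 5 had an unadjusted p under 0.05 in PM-OVA against Sham-OVA and 0 in PM against Sham. Among all 16795 genes these counts were 1738 and 947, and the median log2 fold change in the first was -0.19. Between the saline groups the log2 fold change of Fcer1g was 0.12 (95% confidence interval -0.19 to 0.42) and that of Fcgr2b -0.02 (-0.32 to 0.27), and the widest intervals were those of Fcgr4 (-0.21 to 0.69), Fcgr1 (-0.24 to 0.65) and Tyrobp (-0.40 to 0.44). Between the OVA groups the intervals were wider, -0.23 (-0.81 to 0.35) for Fcer1g, -0.23 (-1.01 to 0.54) for Fcgr2b, -0.17 (-1.40 to 1.06) for Fcgr3 and -0.57 (-1.29 to 0.15) for Fcgr4. All 8 genes overlapped between the groups in both comparisons, and the share of all genes that did so was not counted.

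The difference between the OVA responses of PM and Sham offspring was tested as an interaction over the 4 groups. No member was called by limma (0 of 8, and 0% of all genes tested), and 1, Fcgr4, had an unadjusted p under 0.05 (adjusted p = 0.9173 by limma), beside 854 of all 16795 genes. Its response was lower in PM offspring by 0.81 on the log2 scale (interaction -0.81, 95% confidence interval -1.57 to -0.05). The estimates for the other 7 were between -0.35 and -0.03, for example -0.35 (-0.94 to 0.25) for Fcer1g and -0.21 (-0.91 to 0.49) for Fcgr2b. DESeq2 and edgeR on recovered reads called 0 members as well, with 1 at an unadjusted p under 0.05 each, beside 1475 of 15422 and 1388 of 16795 genes. With array weights, which lower the say of libraries that stand apart, 4 members were called lower in the interaction (Fcgr2b, Fcgr3, Fcgr4 and Syk), where 23.6% of all genes tested were called lower and the median of all genes was -0.32.

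The other genes of the pathway were counted from lists compiled by hand. Of the 10 other Fc receptors tested, 4 were called higher in Sham-OVA (Pigr, Fcrla, Fcmr and Fcrlb) and 1 lower (Trim21), with a median log2 fold change of 0.73 beside -0.48 over all genes. Pigr, which carries IgA and IgM across epithelium, rose from 30.8 to 62.0 RPM in Sham to 420.1 to 763 RPM in Sham-OVA (log2 fold change 3.59, adjusted p = 7.641e-09) and by 3.59 in PM offspring (adjusted p = 3.471e-07). Fcrla, a B cell gene related to Fc receptors, rose by 2.26 (adjusted p = 1.509e-05) and 1.84 (adjusted p = 0.00014), and Trim21, an Fc receptor of the cytosol, fell by 1.63 (adjusted p = 3.199e-07) and 1.21 (adjusted p = 0.0007357). Fcmr, the IgM receptor, had 0.94 in Sham offspring (adjusted p = 0.04429) and 0.45 in PM offspring (adjusted p = 0.2079), and Fcrlb 0.73 (adjusted p = 0.009349) and 0.57 (adjusted p = 0.1562).

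The receptors for IgE gave no call of a rise. Fcer1a, the IgE-binding chain that needs FcRgamma, was below the filter on low values, with at most 0.779 RPM in any saline library and 3.90 RPM in Sham-OVA replicate 4. Ms4a2, the beta chain of that receptor, had a log2 fold change of -0.01 in Sham offspring (adjusted p = 0.9874) and was lower in PM offspring (-0.91, adjusted p = 0.01463), where PM-OVA libraries had 0 to 0.773 RPM. Fcer2a, the low-affinity IgE receptor of B cells, had 0.80 (adjusted p = 0.07642) and 0.36 (adjusted p = 0.3041). Fcrl1, Fcrl5 and Fcamr were not called in either comparison, with values of 0.56, 0.73 and -0.33 in Sham offspring (adjusted p = 0.2219, 0.05807 and 0.377) and of -0.04, 0.26 and 0.27 in PM offspring (adjusted p = 0.9247, 0.5171 and 0.3917). In PM-OVA against PM, 2 of the 10 were called higher (Pigr and Fcrla) and 2 lower (Trim21 and Ms4a2). The 9 constant region genes of the antibodies themselves were not analysed here.

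Receptors listed by hand as pairing with FcRgamma or DAP12, or as carrying a single ITAM tyrosine, were called lower in shares near those of all genes. Of 18 tested on this list, 2 were called higher (Trem2 and Cd300c2) and 9 lower in Sham offspring, with a median of -0.60. In PM offspring the same 2 were called higher and 8 lower, with a median of -0.59. Of all genes, 20.6% were called higher and 47.5% lower in Sham offspring, with a median of -0.48. In PM offspring these were 20.1%, 45.2% and -0.43. Trem2, a lipid receptor of macrophages that signals through DAP12, went from 2.41 to 6.37 RPM in Sham to 19.9 to 70.5 RPM in Sham-OVA (log2 fold change 3.49, adjusted p = 3.204e-07). The largest falls were those of Trem1, a receptor of neutrophils and monocytes, in Sham offspring (-1.53, adjusted p = 0.01294) and of Clec4e, the FcRgamma-coupled lectin Mincle, in PM offspring (-2.31, adjusted p = 0.0001254). Of the 6 other ITAM chains, 3 were called higher in Sham offspring (Cd79b, Cd3e and Cd3d) and 2 in PM offspring (Cd79b and Cd3e), none lower, and Cd79b of the B cell receptor rose by 2.18 (adjusted p = 9.594e-05) and 1.62 (adjusted p = 0.0001639).

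Other receptors listed by hand as inhibitory with an ITIM were called higher and lower. Of 18 tested on this list, 9 were called higher and 2 lower in each comparison, with medians of 0.57 and 0.36. Of all genes, 20.6% and 20.1% were called higher, with medians of -0.48 and -0.43. Pdcd1, the checkpoint receptor PD-1 of T cells, had the largest rise (3.24, adjusted p = 3.354e-07, and 2.95, adjusted p = 3.74e-06), and Ceacam1 the largest fall (-3.88, adjusted p = 1.314e-07, and -3.43, adjusted p = 7.578e-05). Sham-OVA libraries had 0 to 0.677 RPM of Ceacam1, so its fold change depends on the pseudocount.

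Downstream of the receptors the kinases and adaptors moved in both directions. Of all genes tested, 20.6% were called higher and 47.5% lower in Sham offspring, with a median log2 fold change of -0.48. In PM offspring these were 20.1%, 45.2% and -0.43. Of 8 Src family kinases, which phosphorylate the ITAM, 2 were called higher (Blk and Fgr) and 3 lower in Sham offspring and 0 higher and 4 lower in PM offspring. Their medians were -0.16 and -0.34. Yes1 fell the most (-1.73, adjusted p = 5.026e-06, and -1.64, adjusted p = 3.976e-05), and Blk, the B cell member, had 0.96 (adjusted p = 0.02981) and 0.19 (adjusted p = 0.6089). Of 32 adaptors, kinases and effectors below Syk, 15 were called higher and 11 lower in Sham offspring and 13 higher and 13 lower in PM offspring. The medians of this list were 0.26 and 0.12. Blnk, an adaptor that links Syk to phospholipase C in B cells and macrophages, rose the most (4.08, adjusted p = 7.278e-09, and 3.65, adjusted p = 2.772e-07), and Pik3r1, a subunit of PI3 kinase, fell the most (-1.97, adjusted p = 3.548e-05, and -2.27, adjusted p = 0.0007811). Among 19 phosphatases and other brakes, 7 were called higher and 7 lower in Sham offspring and 7 higher and 8 lower in PM offspring, with medians of 0.08 and -0.11. Dok2, an adaptor that restrains Ras signalling, had the largest rise (1.80, adjusted p = 1.262e-06, and 1.69, adjusted p = 5.182e-06), and the largest falls were those of the receptor phosphatase Ptprj in Sham offspring (-4.22, adjusted p = 1.603e-07) and of the phosphatase Ptpn11 (SHP2) in PM offspring (-4.46, adjusted p = 0.0008363).

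**Figure D5:**
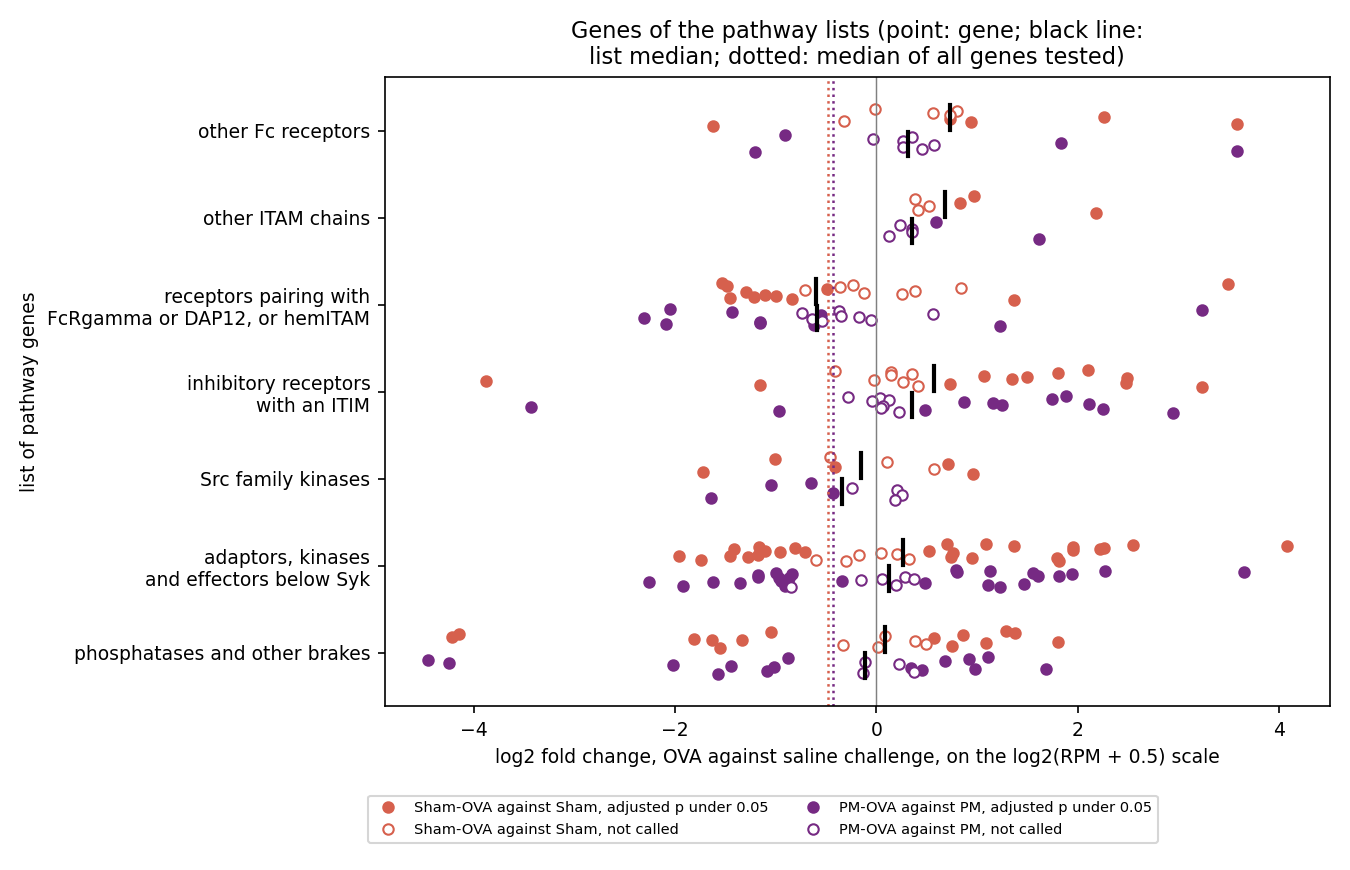
Log2 fold change on the log2(RPM + 0.5) scale (horizontal axis) of the tested genes of 7 lists (rows) between OVA and saline challenge, in Sham offspring (red) and PM offspring (purple), filled where the adjusted p was under 0.05, with black lines for list medians and dotted lines for the medians of all genes tested. The lists of other Fc receptors, ITAM chains and ITIM receptors have medians above 0 (0.31 to 0.73). The list of receptors pairing with FcRgamma or DAP12 or carrying a single ITAM tyrosine has medians of -0.60 and -0.59.

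Markers of cell types that can carry these receptors moved in both directions. Beside their counts stand 20.6% of all genes called higher and 47.5% lower in Sham offspring, and 20.1% and 45.2% in PM offspring. The summed level of 10 interstitial macrophage markers was 973 to 1627 RPM in Sham and 1139 to 1771 RPM in PM, and 3298 to 5062 RPM in Sham-OVA and 3183 to 3727 RPM in PM-OVA. Of these 10, 8 were called higher in Sham offspring and 6 in PM offspring, none lower, with C1qa highest (3.91, adjusted p = 1.656e-09, and 3.36, adjusted p = 1.548e-06), while Csf1r, the receptor for macrophage growth factor, was not called (0.28, adjusted p = 0.3542, and 0.09, adjusted p = 0.747). Eosinophil markers summed to 4.27 to 22.3 RPM in the saline groups, where Epx, Prg3 and Ear6 were at 0 in all 14 libraries, and to 28.0 to 106 RPM in the OVA groups. Of 6 tested, 5 were called higher and 1 lower in each comparison. The fall was that of Siglecf, which is also on the alveolar macrophage list (-1.01, adjusted p = 0.01826, and -1.33, adjusted p = 0.003618). B cell markers summed to 76.1 to 321 RPM in Sham and 229 to 653 RPM in Sham-OVA (3 of 8 called higher, 0 lower), and plasma cell markers to 365 to 569.6 RPM and 7494 to 12715 RPM (6 of 8 higher, 1 lower). In PM offspring 2 of 8 B cell markers were called higher and 1 lower (Cr2), and 6 of 8 plasma cell markers higher and 1 lower. Of 10 dendritic cell markers, 5 were called higher in each comparison, and 2 lower in Sham and 0 in PM offspring. Markers of NK cells, which use Fcgr3 and DAP12, summed to 70.1 to 200.5 RPM in Sham and 24.2 to 109.8 RPM in Sham-OVA, with 6 of 7 called lower and Klra8 at 0 in all libraries. In PM offspring 7 of 7 NK cell markers were called lower. Alveolar macrophage markers were split, 2 of 8 called higher (Chil3 and Car4) and 5 lower in each comparison, as were neutrophil markers, 4 of 10 higher and 2 or 3 lower. Car4 also stands among the endothelial genes in the study's supplement. Of 9 monocyte markers, 1 was called higher and 2 lower in Sham offspring, and 2 higher and 2 lower in PM offspring. Mast cell and basophil markers had 5 of 9 called higher in both comparisons (Cpa3, Hdc, Mcpt8, Tpsab1 and Tpsb2) and 2 or 1 lower. Their sum was 359 to 702 RPM in the OVA groups and 289.6 to 756 RPM in the saline groups. In the saline libraries Cpa3 reached at most 1.45 RPM of it and Mcpt8 0.639 RPM. The list also holds Kit, called lower (-1.82 and -1.77), and Gata2, both among the endothelial genes in the study's supplement. The sum is therefore no measure of mast cells and basophils alone. Ptprc, the pan-leukocyte gene CD45, had a log2 fold change of 0.08 (adjusted p = 0.7657) and -0.11 (adjusted p = 0.5636), beside 3.88 and 3.27 for Cd52, which leads the leukocyte list. The part of cell numbers in the levels of the 8 genes was not tested.

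Genes whose pattern was most like the leading members were ranked by the Pearson r of log2(RPM + 0.5) over 23 libraries. For Fcer1g they were Sh3bgrl3 (r = 0.986), Pglyrp1, Fxyd5, Atp5d and Ndufb9 (r = 0.984), and for Fcgr2b Ms4a7 (r = 0.985), Slc6a20a, Mucl1, Scpep1 and Ctsk (r = 0.969). After the group means were taken out, Fxyd5 was the most like Fcer1g (r = 0.908), followed by Msrb1, Ubxn1, Rbck1 and Tmem179b, and Gk the most like Fcgr2b (r = 0.914), followed by Hdac6, Anapc4, Brf1 and Psme4. The lists of the 2 members shared no gene. The libraries share the OVA difference between their groups, and no p is given.

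Promoters were read for the members because several Fc receptor genes are known targets of PU.1, a transcription factor of myeloid and B cells. RefSeq promoters of the GRCm38.p6 assembly, from 250 bases before to 50 after the start, were at hand for 7 of the 8 members, Tyrobp being the exception. The core GAGGAA or its reverse complement TTCCTC occurred in 4 of the 7 (Fcgr1, Fcgr3, Fcgr4 and Syk). Counted by promoter, it occurred in 5 of their 9 promoters and in 28.3% of all 32851 promoters. The same Fcgr3 site was counted from start sites at offsets of -6 and -15 bases. The stretches below show it in capitals with 20 bases on each side, written on the strand of the gene.
Fcgr1 promoter: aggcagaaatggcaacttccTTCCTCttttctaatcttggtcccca
Fcgr3 promoter: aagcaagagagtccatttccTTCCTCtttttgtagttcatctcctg
Fcgr4 promoter: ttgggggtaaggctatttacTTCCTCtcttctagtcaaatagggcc
Syk promoter: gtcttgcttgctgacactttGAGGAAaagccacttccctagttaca
They lie at chr3:96293999-96294044, chr1:171059384-171059429, chr1:171018884-171018929 and chr13:52596853-52596898. Those of Fcgr3 and Syk lie inside the gene bounds given above, at start sites within the gene. The 3 promoters of activating receptors had the core on the other strand. Fcer1g, Fcgr2b and Fcgrt, the members with no overlap between OVA and saline in either comparison, had no match to these letters in the window, which says nothing of the factor itself.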

How the data were processed

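Lung RNA-Seq of 23 offspring in 4 groups was analysed. Per the methods of the study, reads were trimmed with Trimmomatic, mapped to GRCm38 (mm10 in the labels) with Bowtie2, which does not split reads over introns, and quantified in SeqMonk, whether by strand not being given in the sources used here. The deposited values are RPM, 1 per gene and library, in a table the authors named after RPKM. In every library 100% of them were whole multiples of the worth of 1 read within 0.05 of a read, whatever the gene length, so reads could be recovered, and the RPM test was kept. BALB/c reads were mapped to a reference of another strain.

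The test was limma (3.58.1, R 4.3.3) on log2(RPM + 0.5), using a variance trend and adjusting p-values by Benjamini-Hochberg over all genes tested, between pairs of groups and, for the interaction, over all 4. A gene entered if 4 or more libraries had 0.5 RPM or more of it. A gene was called at an adjusted p under 0.05. Groups and replicate numbers were taken from the labels. Named were the 8 members, the called genes with the largest rise and fall of each pathway list, all other Fc receptors tested, the 5 genes most like Fcer1g and Fcgr2b in 2 measures, and leading or uncalled markers. Further genes, Fcer1a, Cd3d, Cd3e, Cd300c2 and Fgr among them, were named after their values were seen. The members, lists and tests were chosen with earlier results of these data known. Alternatives were other pseudocounts, filters, scalings, thresholds, robust estimation, array weights, a replicate block, all groups in one fit, each library left out, and DESeq2 1.42.0 and edgeR 4.0.16 on recovered reads. Leaving out 4 libraries together was added after seeing the data.

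Recovered counts per library, deposited by the authors only as RPM, set the precision, and floors and limits cover counting error only. Exon lengths and coding sequences came from the GENCODE annotation of GRCm38, and promoters from RefSeq. On simulated data limma recovered 200 of 200 changed genes in Sham-OVA against Sham and 195 of 200 in the interaction, over 11761 genes. Recovery of differences as small as the interaction estimates of the 8 members, at their own levels and spread, was not tested. Figures were drawn with matplotlib 3.10.9.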

Additional observations from a re-analysis of the deposited data

Results flagged for a closer look

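Of 32 groups of values, 8 genes in 4 groups, 5 held a library far from the rest by Dixon's test, which chance alone gives in about 1 group in 20. Sham replicate 4 stood above the other 6 Sham libraries for 3 genes at once: Fcer1g at 20.1 RPM (gap 0.582 of the range, critical value 0.568), Fcgr4 at 12.6 RPM (0.674) and Tyrobp at 64.0 RPM (0.606). Without it the log2 fold changes of Sham-OVA against Sham were 2.37 for Fcer1g, 0.84 for Fcgr4 and 1.199 for Tyrobp, all still called. Sham-OVA replicate 3 stood below the other 4 libraries for Fcgr1 at 0 RPM (0.837, critical value 0.71) and Fcgr3 at 10.6 RPM (0.775). It was the shallowest library, and the part of its depth in these values was not tested.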

How the results depend on the processing

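Depth limits the lowest genes: Fcgr1, Ms4a2 and Fcer1a had 0 reads in at least 1 OVA library. Over the 8 members and 5 comparisons, leaving aside the fits without 1 library, 467 of 512 alternative log2 fold changes kept direction and call, 16 lost the call, 8 gained it and 21 changed sign. Where a value below differs, the cause was not tested. In Sham-OVA against Sham, 4 members were called higher without a filter on low values (Fcgr3, Fcgr4 and Syk lost) and 1 by limma at the study's threshold. In PM-OVA against PM, 0 were called higher by limma at the study's threshold. The single call of a fall, Fcgr1, became 0 without a filter, with median-of-ratios scaling, quantile normalisation, the replicate block, all 4 groups in one fit, DESeq2, edgeR, the study's threshold or 4 libraries left out. In the interaction 4 members were called with array weights. Over all genes, Sham-OVA against Sham gave 3453 higher and 7978 lower by limma and 5584 and 5669 by edgeR on recovered reads, 5286 and 6391 by DESeq2, and PM-OVA against PM 3379 and 7589, 5120 and 5095, and 5321 and 5376. At the study's threshold the higher calls ranged from 5 (replicate block) to 2302 (DESeq2) beside 333, and from 0 to 1767 beside 44. The interaction had 651 higher and 3965 lower with array weights and 445 and 66 without 4 libraries, beside 0, and PM-OVA against Sham-OVA had 1 call by DESeq2 and 1 with all groups.

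None of the log2 fold changes that changed sign was called before. In Sham-OVA against Sham, Ms4a2 turned to 0.12 with a pseudocount of 1, 0.091 with median-of-ratios scaling, 0.50 with quantile normalisation, 0.90 with array weights, 1.39 by DESeq2, 1.55 by edgeR and 0.27 without 4 libraries. Fcamr turned to 0.16 with quantile normalisation, and Fcgr1 to 0.037 with array weights, 0.030 by DESeq2 and 0.15 by edgeR. In PM-OVA against PM, median-of-ratios scaling, quantile normalisation, DESeq2, edgeR and leaving out 4 libraries gave 0.19, 0.30, 0.22, 0.22 and 0.20 for Fcgr4, 0.29, 0.42, 0.47, 0.46 and 0.52 for Fcrl1, and 0.25, 0.16, 0.28, 0.27 and 0.078 for Ptprc, and array weights gave -0.19 for Syk, -0.36 for Blk and -0.42 for Fcrl5. In PM against Sham, Tyrobp was -0.0042 with quantile normalisation, -0.044 by DESeq2, -0.048 by edgeR and -0.019 without 4 libraries. In PM-OVA against Sham-OVA, Fcgr1 was -0.55 with array weights, -0.18 by DESeq2, -0.18 by edgeR and -0.070 without 4 libraries. Its interaction was 0.32 with a pseudocount of 0.1 and 0.097 with median-of-ratios scaling. The median of Fcgr1 minus Fcgr2b in PM-OVA was -4.95 with a pseudocount of 0.1 and -4.63 with 1. With the longest transcript as length, Sham levels were 7.16 for Fcgr2b, 14.1 for Fcgr3 and 16.8 RPM per kilobase for Syk.

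Leaving out 1 library at a time, members called higher in Sham-OVA against Sham ranged from 5 to 7, and members called lower in PM-OVA against PM from 0 to 1. Ranges that crossed 0 were, in Sham-OVA against Sham, -0.65 to 0.33 for Ms4a2, -0.060 to 0.28 for Ptprc and -0.82 to 0.070 for Fcgr1, and in PM-OVA against PM, -0.35 to 0.34 for Fcrl1, -0.16 to 0.21 for Syk, -0.17 to 0.42 for Blk, -0.082 to 0.55 for Fcrl5 and -0.34 to 0.070 for Fcgr4. In PM against Sham they were -0.070 to 0.19 for Tyrobp, -0.12 to 0.051 for Fcgr2b and -0.024 to 0.12 for Syk, in PM-OVA against Sham-OVA -0.66 to 0.045 for Fcgr3, -0.47 to 0.42 for Fcgr1 and -0.43 to 0.014 for Fcer1g, and in the interaction -0.68 to 0.21 for Fcgr1.

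Replicate numbers are those of the sample titles. In the OVA groups most library names carry other numbers, Sham-OVA replicate 3 being the library SHAM-OVA_4, and pairing by those names was not checked. Deviations of libraries with the same replicate number correlated at -0.0665 to 0.115 in Sham-OVA against Sham and -0.101 to 0.0625 in PM-OVA against PM, with 1 of 5 and 0 of 4 pairs above 0.1. They correlated at -0.248 to 0.104 in PM against Sham (1 of 7) and at -0.311 to 0.617 in PM-OVA against Sham-OVA (3 of 4). In no comparison were all pairs above 0.1, and pairs of unlike number were not compared. With the replicate block the calls of Fcgr4 and Syk in Sham offspring and of Tyrobp and Fcgr1 in PM offspring were lost, all-gene calls were 2908 higher and 7117 lower and 2288 and 5694, Ptprc was -0.022 in Sham-OVA against Sham, Syk -0.017, Blk -0.0048 and Fcer2a -0.045 in PM-OVA against PM, and the interaction of Fcgr1 0.038.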

Other observations

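The genes of the IgE receptor were highest in a single library, a pattern chosen after its values were seen. Sham-OVA replicate 4 had 49 reads of Fcer1a (3.90 RPM) and 90 reads of Ms4a2 (7.17 RPM), while the other 8 OVA libraries had at most 0.511 RPM of Fcer1a and 1.25 RPM of Ms4a2. Mcpt8, a protease gene of basophils, had 68.0 RPM there and at most 1.27 RPM in the other OVA libraries, and Cpa3, a mast cell and basophil gene, had 7.01 RPM there, followed by 5.77 RPM in Sham-OVA replicate 1. The same library had the highest Fcer1g of the 9 OVA libraries, 77.4 RPM, next to 75.9 RPM in PM-OVA replicate 3, where both Fcer1a and Ms4a2 were at 0. The part of Fcer1a-expressing cells in the Fcer1g level of that library was not tested.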
